A study of Mus musculus with 3 samples.

Results

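Twist1 occupancy that was detected in E10.5 forelimb buds and not in the other samples of the study is described here for the binding regions that lay beside gene features. A peak of the limb bud list was a member when its chromosome was placed, when less than 5% of its length was overlapped by any peak of the ECC list and of the PNST list, and when the smaller deposited gene distance was at most 1000 bp. There were 2300 such peaks among the 48965 peaks of the limb bud list and the 67468 peaks of all 3 lists. The deposited limb bud list is larger and deeper than the limb bud data set described in the study's text, so it appears to be another call set, and every value here, the word "only" included, refers to the deposited lists. The members were chosen by measured values, namely the peak calls of the 3 samples and the deposited gene distances, so that absence from the other lists is no finding. The study compared Twist1 ChIP-seq in E12.5 atrioventricular canal endocardial cushions (ECCs), E10.5 forelimb buds and a cultured peripheral nerve sheath tumor (PNST) cell line, all of strain FVB/N, with 1 pooled sample for each and 5 μg of the same Twist1 antibody. Limb buds and ECCs came from pooled wild-type embryos of several litters, and the PNST sample came from 1 cell line. No sample had a replicate, so no test between tissues was possible, and the values below carry counting error only. In a sample of whole limb buds, occupancy in few cells and weak occupancy in many cells cannot be told apart.

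Twist1 is a basic helix-loop-helix (bHLH) transcription factor that binds E-box sites (CANNTG) as a dimer with itself or with E proteins such as Tcf12. In the early limb bud it is made in the mesenchyme under the ectoderm, where it is required for outgrowth and for the exchange of FGF and hedgehog signals between mesenchyme, apical ridge and posterior margin. Limb mesenchyme later condenses into cartilage, tendon and connective tissue, while muscle precursors, nerves and vessels enter from outside.

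To show what the members consist of, 10 regions beside genes of the limb lists described further on are printed from the plus strand of mm9, with E-boxes in capitals. They had the most tags among the list members named by rule that hold an E-box, have at most 300 bp and touch no annotated UTR. The last region printed is the member with the most tags in the whole set under the same limits, 43 tags.
Ift122, chr6:115871040-115871256: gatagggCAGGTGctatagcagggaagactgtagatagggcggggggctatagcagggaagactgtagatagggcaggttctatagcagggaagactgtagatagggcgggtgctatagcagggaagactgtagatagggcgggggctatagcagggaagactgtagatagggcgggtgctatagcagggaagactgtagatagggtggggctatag
Spred1, chr2:116991046-116991249: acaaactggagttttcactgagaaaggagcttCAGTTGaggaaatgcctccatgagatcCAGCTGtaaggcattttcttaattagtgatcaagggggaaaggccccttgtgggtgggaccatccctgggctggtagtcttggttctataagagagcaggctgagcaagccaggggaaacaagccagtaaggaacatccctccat
Rbpj, chr5:54019243-54019479: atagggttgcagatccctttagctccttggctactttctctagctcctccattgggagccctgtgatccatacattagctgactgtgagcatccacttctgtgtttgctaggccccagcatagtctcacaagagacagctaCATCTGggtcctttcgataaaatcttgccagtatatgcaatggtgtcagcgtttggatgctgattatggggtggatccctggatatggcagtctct
Lama4, chr10:38752121-38752308: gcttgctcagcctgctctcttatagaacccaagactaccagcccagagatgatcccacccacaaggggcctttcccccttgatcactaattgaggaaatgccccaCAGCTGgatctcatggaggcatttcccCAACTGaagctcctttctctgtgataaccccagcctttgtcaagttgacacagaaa
Cdh11, chr8:105194814-105194975: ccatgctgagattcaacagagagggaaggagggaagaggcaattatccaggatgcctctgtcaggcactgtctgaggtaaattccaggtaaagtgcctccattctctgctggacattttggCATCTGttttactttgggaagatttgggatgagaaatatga
Ltbp2, chr12:86129268-86129428: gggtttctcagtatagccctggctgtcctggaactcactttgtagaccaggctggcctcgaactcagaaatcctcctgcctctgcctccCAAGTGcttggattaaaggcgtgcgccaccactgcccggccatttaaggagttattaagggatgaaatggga
Tcf12, chr9:71771451-71771602: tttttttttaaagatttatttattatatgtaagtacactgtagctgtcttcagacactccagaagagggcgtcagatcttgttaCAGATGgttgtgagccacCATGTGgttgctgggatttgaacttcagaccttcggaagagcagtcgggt
Sdc2, chr15:32946582-32946753: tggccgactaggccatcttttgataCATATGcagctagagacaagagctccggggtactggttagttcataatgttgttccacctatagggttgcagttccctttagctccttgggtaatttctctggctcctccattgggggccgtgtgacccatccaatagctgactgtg
Ncoa1, chr12:4273703-4273839: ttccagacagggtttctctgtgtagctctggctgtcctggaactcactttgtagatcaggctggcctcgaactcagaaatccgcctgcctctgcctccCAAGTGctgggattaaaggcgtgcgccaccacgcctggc
Tgfbr1, chr4:47405463-47405618: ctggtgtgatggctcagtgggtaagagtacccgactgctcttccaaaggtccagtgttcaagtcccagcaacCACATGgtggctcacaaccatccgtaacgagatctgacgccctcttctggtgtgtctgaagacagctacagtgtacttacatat
4930467E23Rik, chr8:19737157-19737444: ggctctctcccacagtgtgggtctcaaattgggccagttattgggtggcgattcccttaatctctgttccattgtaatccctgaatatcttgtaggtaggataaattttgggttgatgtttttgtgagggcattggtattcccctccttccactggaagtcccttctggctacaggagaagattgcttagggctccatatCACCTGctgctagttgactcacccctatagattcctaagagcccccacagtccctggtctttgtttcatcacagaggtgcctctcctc
The Ltbp2 and Ncoa1 regions shared an identical run of 28 bases. The Tcf12 and Tgfbr1 regions shared 33 bases on opposite strands. The Spred1 and Lama4 regions shared 39 bases on opposite strands, and both hold the E-box CAGCTG. The Ift122 region is a tandem array of a short unit.

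Members lay in repeated sequence. Of the 50-base words of a member (50 bases being the read length), a median of 94.6% occurred more than once in mm9 on either strand, and 2063 of 2300 members (89.7%, 95% Wilson interval 88.4 to 90.9) had at least 50% of their words repeated. Regions of the same length placed 1000 bp to the lower and the higher side of each member had a median of 0%, and 11.4% of them on each side reached 50%. The same share was 94.4% (94.1 to 94.6) in the 41257 limb bud only peaks that lay farther from a gene feature and 76.8% (71.4 to 81.4) in the 267 peaks within 1000 bp that were shared with ECCs or PNST cells. Peaks within 1000 bp in the other lists reached it in 74.5% of 709 ECC peaks and 76.9% of 295 PNST peaks. Words of 32 bases gave 96.8% of members. Whether reads that match several places were dropped or assigned to 1 of them is not given in the sources used here, and the part of this in the peak calls was not tested.

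The 20-base word held by the most members was found first, then the word held by most of the remaining members, and so on. The first 3 words are shown because together they covered 730 members, or 31.7%.
shared 20-mer 1: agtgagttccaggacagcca
shared 20-mer 2: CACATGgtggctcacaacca
shared 20-mer 3: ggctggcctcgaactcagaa
The first word was in 419 members (18.2%), in 2005 of the farther limb bud only peaks (4.86%) and in 13 and 16 of the side regions (0.565% and 0.696%). It occurs 79377 times in the genome and is part of the B1 short interspersed element, as is the third, which was in 292 members (12.7%) and in 3.32% of the farther peaks. The second word, part of the B2 short interspersed element, begins with the E-box CACATG and was in 200 members (8.70%) and 2.25% of the farther peaks. The fourth and the eighth word were instead more frequent in the farther peaks, at 9.85% against 4.43% of members and 7.01% against 3.70%. The words were picked for their frequency in members, and their shares are therefore descriptions. With 8 words, 1088 members (47.3%) were covered.

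**Figure D1:**
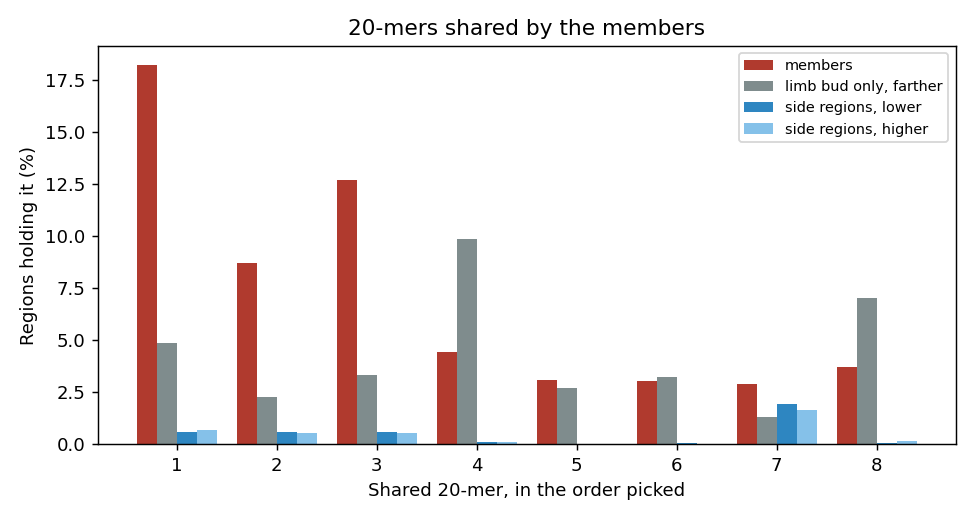
Share of regions (%) that hold each of 8 shared 20-base words, numbered in the order picked, for members, for limb bud only peaks farther from genes and for side regions of the members. Words 1 to 3 were more frequent in members, words 4 and 8 in the farther peaks, and side regions held word 1 in 0.565% and 0.696% of cases.

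Tags were few. A member held a median of 9 tags (quartiles 8 and 11, range 8 to 399), and 8 was the lowest number called in limb buds. At this minimum were 879 members, 495 had 9 tags, and only 235 (10.2%) had 15 or more. Farther limb bud only peaks also had a median of 9 tags (quartiles 8 and 12), and peaks within 1000 bp that were shared had a median of 15 (10 and 28). The median length was 140 bp (quartiles 128 and 161, range 58 to 2321) against 143 bp (132 and 173) farther away and 165 bp in the shared set. The fold enrichment, the tags at the summit over the local background, had a median of 15.7 (13.1 and 18.3), compared with 14.2 (12.1 and 16.2) in farther peaks and 16.03 (12.3 and 23.3) in shared ones. A p-value of 1e-10 or smaller was reached by 164 members (7.13%, 6.15 to 8.26), beside 8.74% of all placed limb bud peaks, 6.42% of farther limb bud only peaks and 43.8% of the shared peaks within 1000 bp. Most members were thus near the lowest tag count called, as were the limb bud only peaks elsewhere.

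Depth bears on the word "only". The limb bud library kept 14893391 tags after the duplicate filter, the ECC library 3149934 and the PNST library 11823220, as the deposited headers state. This gap in depth holds for the deposited call sets and not for the read numbers in the study's text, where limb buds and ECCs are close to each other. A member of 9 tags would correspond to 1.90 tags at the ECC depth, where the lowest called peak had 5, and to 7.14 tags at the PNST depth, where the lowest had 7. To reach these minimums after scaling, a limb bud peak needed 24 tags for ECCs, which 80 members had (3.48%), and 9 tags for PNST cells, which 1421 members had (61.8%). For the other 2220 members, absence from the ECC list and lack of depth cannot be told apart. Only tag counts were scaled, not the p-value limit or the local background. The 80 members with enough tags might therefore also have missed the p-value limit at the ECC depth, which was not tested. An ECC peak lay within 1000 bp of 76 members (3.30%) and a PNST peak within 1000 bp of 14 (0.609%).

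**Figure D2:**
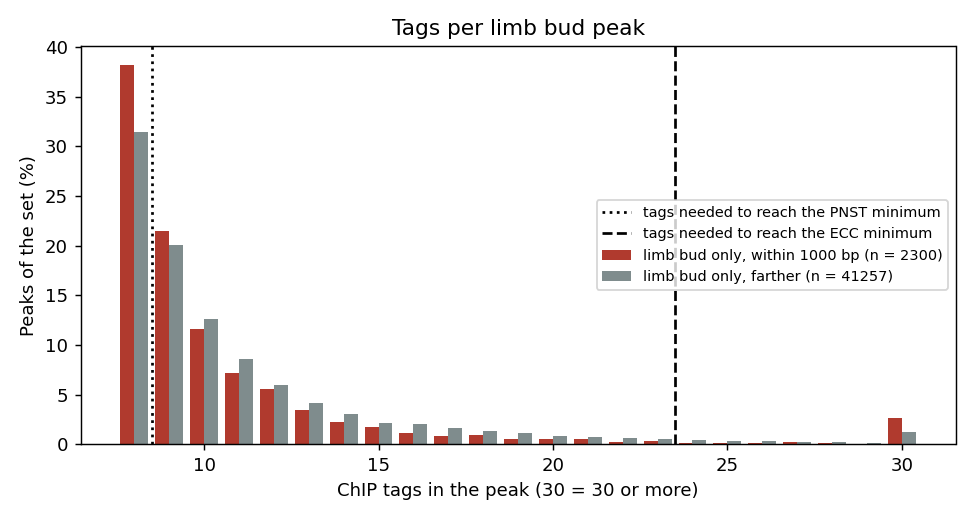
Distribution of tags per peak (x axis, tags, with 30 or more in the last bar; y axis, % of the set) for 2300 members and 41257 farther limb bud only peaks. Dotted and dashed lines mark the tags needed to reach the scaled minimum of the PNST list (9) and of the ECC list (24), and most members lie to the left of the dashed line.

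The peaks next to the limits of selection show how the set was cut. Members at exactly 1000 bp included those beside Phactr4 (10 tags), Spag6 (14 tags) and Trpa1 (10 tags). Just outside, 1 bp beyond the limit, were peaks beside Zfp958 (34 tags) and Adhfe1 (11 tags). One member had any overlap with a peak of another tissue, 3.21% of its length beside Ppwd1 (22 tags), and the nearest peak beyond the limit was beside Nme6 with 5.05% (19 tags). Of 2567 placed limb bud peaks within 1000 bp, 223 overlapped an ECC peak and 99 a PNST peak.

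The members with the most tags were broad and of low fold enrichment. The highest count was 399 tags over 1871 bp in intron 10 of Sfi1, a gene of the centrosome, at chr11:3058380-3060250, with a fold enrichment of 2.69. Another 2 were beside Gm15319 (328 and 172 tags, 3.19-fold and 3.31-fold), and a further 2 beside Gm9758 (208 and 162 tags, 3.53-fold and 4.68-fold). The remaining ones lay beside 4930467E23Rik (223 tags), Speer7-ps1 (214 tags) and Gm17019 (137 tags). All 8 lay on chromosomes 5, 8 and 11. All of these but Sfi1 bear provisional or pseudogene names, and in their members 77.3% to 100% of 50-base words were repeated, against 6.53% at Sfi1. Peaks of 661 tags at Sfi1 and 230 tags at Gm9758 were outside the set because another tissue shared 13.4% and 21.5% of their length. An ECC peak lay 649 to 4461 bp from each of the 8 members with the most tags. The nearest PNST peaks lay 3975 bp (Sfi1) to 27850 bp (Gm15319) from them.

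Fold enrichment singled out other regions. The highest value was 41.8-fold with 18 tags in intron 5 of Rpa1, a subunit of the single-strand DNA binding complex RPA, at chr11:75141379-75141512, where 9.41% of words were repeated and no E-box was found. Pik3r6, a regulatory subunit of a phosphoinositide 3-kinase, had a member of 34.0-fold and 18 tags located 607 bp upstream of its start. The next were in introns of 1300017J02Rik (33.9-fold, 14 tags), Ermp1, a metallopeptidase of the endoplasmic reticulum (31.9-fold, 20 tags), Lrmp (31.3-fold, 20 tags) and Rps6ka5, a kinase that acts downstream of MAP kinases (31.3-fold, 14 tags). Vmn2r29, a vomeronasal receptor gene (29.8-fold, 17 tags, 126 bp from an ECC peak), and Paip1, a partner of the poly(A) binding protein (28.7-fold, 34 tags), completed the 8. Only 1300017J02Rik and Lrmp of these held an E-box. Repeated 50-base words made up 100% of the members beside 1300017J02Rik and Ermp1, 86.2% at Paip1, 80.4% at Pik3r6, where a simple repeat run took 127 of 156 bp, and 55.1% at Vmn2r29, against 32.3% at Rps6ka5 and 16.03% at Lrmp. By tag count, the median fold enrichment was 17.5 for members of 12 to 15 tags (299 members), 7.61 for 24 to 49 tags (56 members) and 4.26 for 50 or more (24 members), and Paip1 was an exception with 34 tags.

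**Figure D3:**
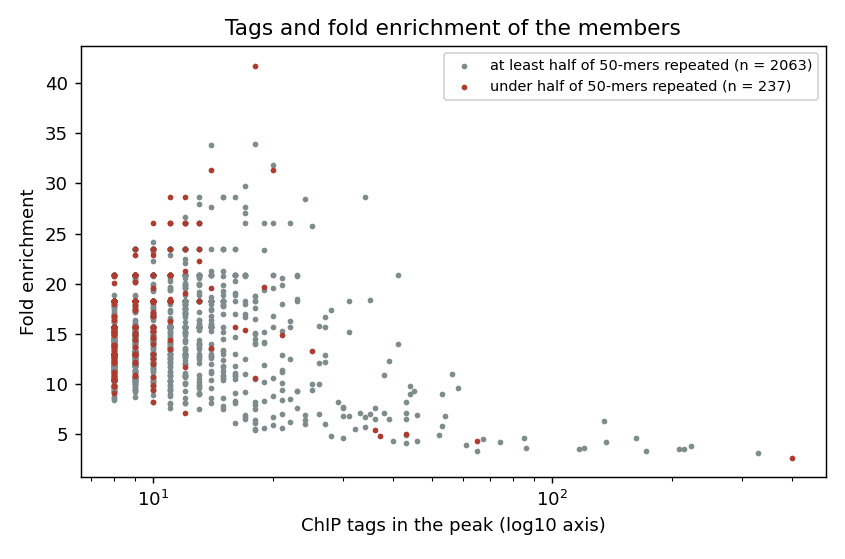
Fold enrichment (y axis) against tags (x axis, log10) for the 2300 members, coloured by whether at least 50% of their 50-base words are repeated in mm9. The member of 399 tags (Sfi1) is at the lower right with 2.69-fold, and the one of 41.8-fold (Rpa1) at the top has 18 tags.

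E-boxes were about as frequent in members as beside them. Of 2300 members, 1264 held at least 1 E-box (55.0%, 52.9 to 57.0), and the side regions held one in 54.3% (52.2 to 56.3) and 54.1% (52.0 to 56.1) of cases. The shares were 56.8% (56.3 to 57.3) in farther limb bud only peaks and 49.4% (43.5 to 55.4) in shared peaks within 1000 bp. Per Kb of sequence, members held 5.80 E-boxes and farther peaks 5.66. An E-box lay within 50 bp of the summit in 939 members (40.8%). A pair of E-boxes with 5 bases between them was found in 7 members (0.304%, 0.148 to 0.627) and in 0.579% of farther peaks. Members of 24 to 49 tags held an E-box in 75% of 56 cases and those of 50 or more in 95.8% of 24, with median lengths of 327.5 and 648 bp. Cores were counted together with their reverse complement. The core CACATG was the most frequent in members at 16.1% (14.6 to 17.6), against 9.84% (9.56 to 10.1) of farther peaks, and CAAGTG followed with 14.3% against 6.02%. The B2 word contains the first of these cores, and the 200 members with that word make up more than 50% of the 370 members with CACATG. The core CACCTG, in 13.2% of members, and CATATG, in 5.65%, were more frequent in farther peaks (15.96% and 10.2%).

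The deposited gene distance was not a distance to the start of a gene. The distance runs from the start of the peak, and of 2283 member and gene pairs found in the annotation (GENCODE vM1) it ended at the lower edge of an annotated exon, coding piece or codon of the named gene in 2120 (92.9%) and at a transcription start site in 57 (2.497%). By summit, 1811 members (78.7%, 77.0 to 80.4) were in introns of protein-coding genes, 166 (7.22%) in exons, 145 (6.30%) within 1000 bp upstream of a start site and 178 (7.74%) between genes. Of the exonic summits, 107 were in coding sequence and 59 in UTRs. The median distance from the summit to the nearest protein-coding start site was 11166 bp, 267 members (11.6%) lay within 1000 bp of one, and 1221 (53.1%) lay beyond 10000 bp. The farther limb bud only peaks had 10315 of 41257 summits in introns and 30730 between genes, a contrast that the selection by gene distance sets. "Beside genes" therefore means beside an exon edge, mostly inside the gene.

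**Figure D4:**
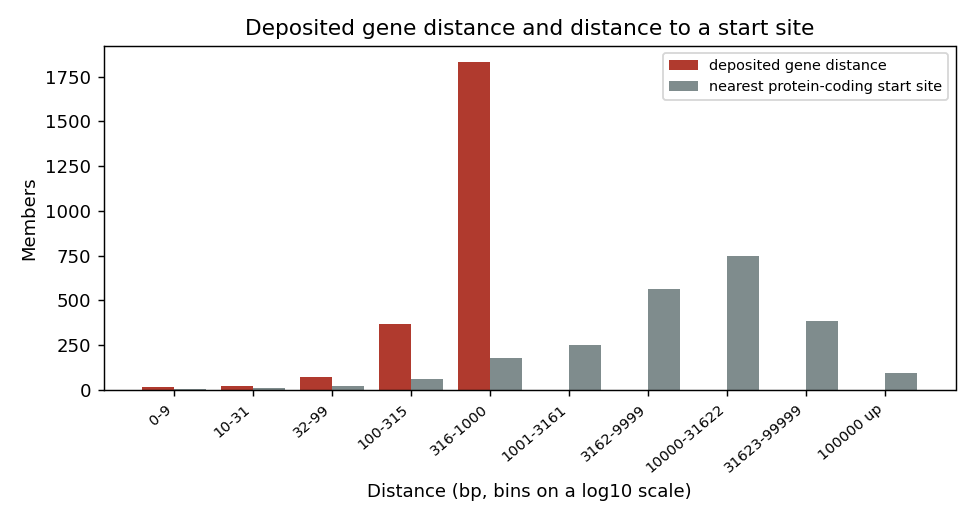
Number of members (y axis) by the deposited gene distance and by the distance from the summit to the nearest protein-coding start site (x axis, bp, bins on a log10 scale). The deposited distances end at 1000 bp by selection, while most distances to a start site are larger, with a median of 11166 bp.

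The members named 1986 genes within 1000 bp, of which 1721 had 1 member, 226 had 2 and 39 had 3 or more. The annotation listed 1911 of them as protein-coding. Of the 13693 genes named anywhere in the limb bud list these were 14.5%, and this share moved with the number of annotated exons. It was 6.20% for genes with 1 to 5 exon starts, 11.1% for 6 to 10, 16.8% for 11 to 20, 25.2% for 21 to 40 and 35.8% above that. Of the genes with a member, 161 also had an ECC peak within 1000 bp (8.11% of the member genes, 24.96% of 645 ECC genes), and 53 had a PNST peak (2.67% of the member genes, 19.2% of 276 PNST genes).

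Among the genes with the most members were predicted gene models present in several copies. The X-linked gene models Gm10058 (6 members, 8 to 13 tags) and Gm10147 (5 members, 8 to 12 tags) were named at copies far apart on the chromosome. Gm4302 had 5 members of 36 to 44 tags, and with Gm4301 and Gm4303 it formed the densest locus, 11 members in 47.3 Kb of chromosome 10. Gm13691 had 5 members of 18 to 22 tags. A pair of histone gene clusters on chromosome 13 held 6 members (8 to 22 tags) beside Hist1h2ai, Hist1h2bp, Hist1h2bq, Hist1h3i, Hist1h4j and Hist1h4k, and 5 members (9 to 23 tags) beside Hist1h2ab, Hist1h2ac, Hist1h2bb, Hist1h4b and the iron regulator Hfe.

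Genes of limb development were then read against the share of 14.5% for all genes named in the limb bud list. The 17 lists held 683 genes, 497 of them named somewhere in the limb bud list, and 53 of these (10.7%) had 68 members within 1000 bp, with a median of 9 tags and a maximum of 17. Only 9 of the 68 had under 50% of their 50-base words repeated, so nearly all list results below rest on repeated sequence. The lists were made with earlier results of these data known, and a list's share is a description of 1 library.

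Transcription factors of limb patterning were rarely members. Of 54 named patterning factors 2 had one (3.70%), among them Tbx15, a T-box factor of limb skeletal growth, with 8 tags in intron 2 and no E-box. Both had the lowest tag count called. None of the 5 Hox genes named in the limb bud list had a member. The patterning list had a median of 7 exon starts and the Hox list 3. Genes of 6 to 10 exon starts had a member in 11.1% of cases and those of 1 to 5 in 6.20%. The part of exon number in these shares was not tested. Among Twist1 and its bHLH relatives 2 of 17 had one (11.8%). Tcf12, the E protein HEB with which Twist1 forms dimers, had a member of 11 tags and 2 E-boxes in intron 6. Tal2, a bHLH factor of midbrain and leukemia, had one of 10 tags 641 bp upstream of its start without an E-box.

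Hedgehog signaling stood highest among the lists of signaling genes. There 10 of 26 named genes (38.5%) had 14 members, with a median of 8 tags. Ptch1, the hedgehog receptor and a known target of the pathway in posterior limb mesenchyme, had 2 members of 16 and 8 tags, the larger in intron 18 at chr13:63622326-63622539 with no E-box. Hhip, which binds and restrains hedgehog ligands, and Hhat, which acylates them, had 1 member of 8 tags each. The other genes act in the primary cilium through which the signal passes. Among these were the intraflagellar transport genes Ift122 (3 members of 17, 8 and 8 tags), Ift140 (9 tags), Ift172, Ift52 and Ift80 (8 tags each), the dynein motor gene Dync2h1 (9 tags) and Iqce, of the ciliary base (13 and 10 tags). No hedgehog ligand or Gli factor had a member. The members of this list were repeated sequence in 12 of 14 cases. Its genes had a median of 19 exon starts, and genes of 11 to 20 had a member in 16.8% of cases. The part of exon number in the share was not tested.

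The other signaling lists were at or below the share for all genes. In BMP and TGF-beta signaling 7 of 54 named genes (13.0%) had 1 member each. These were the receptors Bmpr1a (9 tags) and Tgfbr1 (10 tags), the ligand Tgfb1 (9 tags), the latent TGF-beta binding protein Ltbp2 (11 tags), the secreted BMP antagonist Fstl1 (8 tags), the ubiquitin ligase Smurf1 (8 tags) and the Smad anchor Zfyve9 (8 tags). In FGF signaling 2 of 36 (5.56%) had one, both regulators of the Ras pathway inside the cell. Spred1, an inhibitor of Ras activation, had 16 tags at 20.9-fold in intron 4 with 2 E-boxes, and Ptpn11, the phosphatase Shp2, had 8 tags. In Wnt signaling 2 of 79 (2.53%) had one, the scaffold Apc (8 tags) and the formin Daam2 (11 tags). In Notch signaling 2 of 23 (8.70%) had one, Rbpj, the DNA-binding factor of the pathway (16 tags), and Psen2, a subunit of gamma-secretase (12 tags). In retinoic acid signaling 1 of 18 (5.56%) had one, the coactivator Ncoa1 (10 tags). No FGF, Wnt or Notch ligand or receptor on the lists had a member.

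Genes of cartilage and matrix had shares close to the 14.5% of all genes, without regard to exon number. The cartilage list had a median of 13 exon starts and the matrix list 27. In the limb bud list, genes of 11 to 20 exon starts had a member in 16.8% of cases and those of 21 to 40 in 25.2%. The part of exon number in the list shares was not tested. Of 38 cartilage and skeletal genes 6 (15.8%) had 9 members. Matn3, a cartilage matrilin, had 3 members of 15, 13 and 8 tags, and an ECC peak lay 595 and 868 bp from the larger ones. Matn1 had 1 of 10 tags, Col11a2 1 of 14 tags and Col9a3 2 of 8 tags, the collagen genes both encoding fibril components of cartilage. Wwp2, a ubiquitin ligase of cartilage, had 1 of 10 tags. Pth1r, the receptor for parathyroid hormone related protein in growth plates, had 1 of 8 tags whose words were all single-copy, 311 bp from a start site. Of 62 mesenchymal matrix and adhesion genes 9 (14.5%) had 13 members. Cdh11, a cadherin of mesenchyme, had 4 members of 12, 10, 10 and 8 tags, all of which held an E-box. In 3 of these 4 under 50% of words were repeated. The basement membrane genes Lama4 (12 tags), Lamb1 (8 tags) and Col4a1 (10 and 8 tags), the fibrillar collagen Col5a2 (10 tags), the integrins Itga6 (9 tags) and Itga4 (8 tags), the proteoglycan Sdc2 (11 tags) and the adhesion molecule Ncam1 (8 tags) made up the rest.

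Guidance genes had a member in 6 of 45 cases (13.3%), 10 members in all. The secreted semaphorins Sema3c (17 tags at 20.9-fold, intron 9) and Sema3a (9 and 8 tags) were among these genes. Sema3a repels axons entering the limb. Also among the genes were the membrane semaphorin Sema6b (9 tags) and the semaphorin receptor Plxna2 (16 and 15 tags). The repellents Slit1 (15 and 9 tags) and Slit3 (8 and 8 tags) made up the rest. None of the Eph receptors, ephrins or netrins on the list had a member. The genes of this list had a median of 22 exon starts, and genes of 21 to 40 had a member in 25.2% of cases.

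Markers of other cells that a whole limb bud holds had 4 members in all. None of the 12 ectoderm, 12 muscle precursor and 14 nerve lineage markers named in the limb bud list had one. Endothelial markers had 2 of 12 (16.7%), Pecam1 and Tek, and blood cell markers 2 of 7 (28.6%), Gata1 and Itgam, both above the 14.5% of all genes but on few genes, and each with 1 member of 8 tags. RNA levels were not measured in these files, so that these genes do not show which cells were bound.

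**Figure D5:**
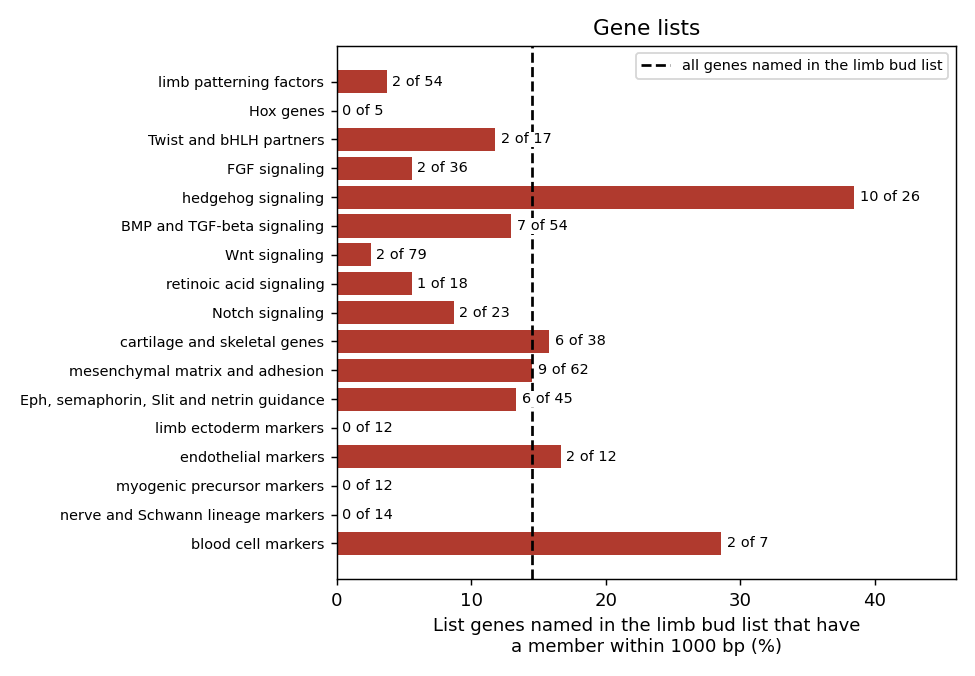
Share of list genes (%, x axis) named in the limb bud list that had a member within 1000 bp, for 17 gene lists, with counts beside the bars. The dashed line marks the 14.5% of all genes named in the limb bud list, which the hedgehog list (10 of 26) exceeds most among the signaling lists.

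The study's own limb bud categories were read in the same way. These lists were chosen by the study on these samples and are not independent of them. A member was found for 22 of 115 named genes of kinase activity (19.1%), 23 of 97 of cell migration (23.7%), 16 of 89 of neurogenesis (17.98%) and 13 of 42 of cytoskeletal proteins (30.95%). Their genes had a median of 20, 19, 23 and 24 exon starts. In the limb bud list, genes of 11 to 20 exon starts had a member in 16.8% of cases and those of 21 to 40 in 25.2%. The part of exon number in these shares was not tested. The highest tag count in the study's lists was 19, and the medians were 9, 9, 9 and 9.5 tags. Of 26 genes for which the study designed ChIP-qPCR regions, 2 had a member, beside 14.5% of all genes named in the limb bud list. These were Abhd6 (8 tags, intron 6) and Cask (9 tags, intron 7), each with 1 E-box. The study had picked Abhd6, Sos2 and Tmem18 as limb bud regions and Cask as a PNST region. By ChIP-qPCR it detected Twist1 at its Abhd6, Sos2 and Tmem18 regions in limb buds and not in ECCs or PNST cells. At its Cask region it detected Twist1 in PNST cells and not in limb buds or ECCs. Whether the Abhd6 and Cask members are the regions of the study was not tested. Sos2 and Tmem18 had no member. A limb bud peak lay 573 bp from Sos2, inside the distance limit, but did not meet the other conditions of membership. The same held for peaks 112 bp from Mid1 and 746 bp from Cd44. The nearest limb bud peak to Tmem18 lay 5881 bp away.

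Members without a repeated 50-base word were few and low. Only identical words were counted, so diverged copies of a repeat can be among these members. No repeated 50-base word was found in 41 members (1.78%, 1.32 to 2.41), against 0.322% of farther limb bud only peaks and 80.1% and 80.8% of the side regions. They named 43 genes. With words of 32 bases, 16 members (0.696%) had no repeated word. Of the 41 members 21 were at 8 tags, the median was 8 and the maximum 36, and 4 had 12 or more. Among all 41, 16 held an E-box (39.0%, 25.7 to 54.3) and 22 contained a simple repeat run of 20 bases or more, which all members contained in 12.2% of cases and farther peaks in 5.28%. A pair of those with many tags that hold an E-box and are within the limits above was picked after the values were seen. They are printed because no 50-base word in them occurs elsewhere in the assembly.
4931408C20Rik, chr1:26744957-26745180: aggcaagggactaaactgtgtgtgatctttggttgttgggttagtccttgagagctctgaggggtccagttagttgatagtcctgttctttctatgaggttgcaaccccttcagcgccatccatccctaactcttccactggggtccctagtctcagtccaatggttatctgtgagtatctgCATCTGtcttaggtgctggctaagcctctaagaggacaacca
Eef2, chr10:80641780-80642002: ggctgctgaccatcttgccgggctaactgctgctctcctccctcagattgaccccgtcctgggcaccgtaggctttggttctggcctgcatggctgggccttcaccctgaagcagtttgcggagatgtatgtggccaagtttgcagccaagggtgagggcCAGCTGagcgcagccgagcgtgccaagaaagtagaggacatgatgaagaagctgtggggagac
The first lay 758 bp upstream of the gene model 4931408C20Rik (19 tags, 19.7-fold). The second was in coding exon 5 of Eef2, the translation elongation factor (17 tags at 15.4-fold), and also beside the small nucleolar RNA gene Snord37. Another Eef2 member without a repeated word lay in coding exon 4 (18 tags at 10.6-fold, 1 E-box) and is not printed. The most tags among the 41 members were 36, at 5.48-fold, in an intron of Gm7120. By summit, 24 of the 41 lay in introns, 7 at promoters, 6 in exons and 4 between genes. Those at promoters included Commd8 (11 tags, 28.7-fold, 149 bp from a start site) and Hsd3b7, an enzyme of bile acid synthesis (11 tags, 26.1-fold, 86 bp). Antxr1, an anthrax toxin receptor that binds collagen (9 tags, 66 bp), was another. All 3 contained a simple repeat run of at least 20 bases. Prdm1, the repressor Blimp1 with a role in limb outgrowth, had a member of 8 tags and 18.3-fold in an intron, with a simple repeat run of 24 in 96 bp. Il6st, the shared receptor subunit gp130, had one of 8 tags in an exon.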

How the data were processed

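The authors made a single Twist1 ChIP-seq library from each tissue (ECC, E10.5 limb bud, PNST cells). Reads of 50 bp were mapped to mm9, for which the submitters' notes name Bowtie and the methods also Eland. Peaks came from MACS 1.4.2, run with a band width of 300 bp and a p-value limit of 1e-05. The headers name no control file, whereas the methods name FVB/N genomic DNA. The deposited lists hold a count of tags for each peak, not normalized for depth, with at most 1 tag kept at each position. The deposited fold enrichment is a ratio, observed over locally expected tags, and the p-value was deposited as 10 times its −log10. After duplicate filtering the limb bud library held 14893391 tags, compared with 3149934 (ECC) and 11823220 (PNST).

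Positions were used as deposited in mm9. A peak was shared when a single peak of another list covered at least 5% of it. The members and the gene lists were chosen with earlier results of these data known. Since there was 1 sample for each tissue, no test was made, and the results are counts, medians and 95% Wilson intervals, which cover counting error only. Sequence came from the NCBIM37 genome and gene structure from GENCODE vM1. E-boxes (CANNTG, the same on both strands) were counted in the whole peak, within 50 bp of the summit and in regions of equal length 1000 bp to each side. Simple repeats were perfect runs of 20 bases or more with a unit of at most 6. Named were the 8 members with the most tags, the 8 with the highest fold enrichment, up to 3 members of each list (the text adds all genes of the lists), genes among the 5 with the most members, and genes with designed ChIP-qPCR regions. Exon starts are distinct exon start positions over all transcripts of a gene. Repeated words were identical words counted over all sequences of the genome. Diverged copies and copies missing from the assembly are not seen. Python 3.11.15, pandas 2.3.3, SciPy 1.17.1, pysam 0.24.0 and samtools 1.23.1 were used. The interval, motif and word counts were tested on simulated data with known answers. Alternatives were other overlap and distance limits, a p-value of 1e-10, merged peaks, a tag minimum and other annotation. Some items that these rules name are not reported here.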

Additional observations from a re-analysis of the deposited data

Results flagged for a closer look

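Peaks on unplaced sequences were outside the selection. There, 5 limb bud peaks met the other conditions, being absent from both other lists and within 1000 bp of a gene feature, with a median of 9 tags and a maximum of 14. They were noted because they hold signal that no comparison above uses.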

How the results depend on the processing

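No paired analysis was possible because each tissue had 1 sample. Of 54 values under alternative settings, 26 stayed within the interval of the main value (for counts of members and genes, within 1.5 times). Counting any overlap of 1 base, or a peak of another tissue within 1000 bp, as shared, or merging peaks within 200 bp, moved no value beyond these limits. A gene distance of 500 bp gave 968 members, 887 genes and 27 members on the gene lists, and 2000 bp gave 4264, 3343 and 117. Peaks of a p-value of 1e-10 or smaller were 164 members with 157 genes, a median of 17 tags and 209 bp, and an E-box share of 52.4%. Peaks of at least 24 tags met the scaled tag minimum of both other lists, with the p-value limit not scaled. These were 80 members with 54 genes, a median of 38.5 tags and 385 bp, and an E-box share of 81.3%. An alternative chosen after seeing the data, members with under 50% of 50-base words repeated, left 237 members, 234 genes, a median length of 139 bp, an E-box share of 48.5% and 9 members on the gene lists. The E-box share was 40.8% within 50 bp of the summit and 58.0% without simple repeat runs. With any touch of the peak, exons took 9.22%. With all gene types, introns took 74.1%, exons 10.0%, promoters 9.87% and regions between genes 6%. Why these values moved was not tested. With a median of 9 tags and no replicate, differences in tags between members are within counting error for most.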
